A study of Homo sapiens with 44 samples.

Results

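Doxorubicin was compared with its solvent in HCT116 cells, a human colon carcinoma line with intact p53, and the change of every gene in the deposited table is described here. The comparison rests on 6 RNA-seq samples of the 44 samples in the series, 3 from cells given 500 nM doxorubicin and 3 from cells given DMSO, and on all 21159 genes of the table. The labels describe unedited (WT) HCT116 p53+/+ cells in RPMI-1640 medium for both groups, and they give no treatment time. Per the labels each condition had 2 to 3 biological replicates, without saying whether these were separate cultures. The p-values therefore rest on the variation among these 6 samples alone, which may be technical. The series asks how GAS41, the histone reader encoded by YEATS4, takes part in transcriptional repression, and doxorubicin served there to follow the transcriptional response to the drug. As a model these cells are 1 line, grown in culture without other cell types.

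Doxorubicin is an anthracycline that inserts into DNA and traps type II topoisomerases on it, which leaves double-strand breaks. Cells with p53 respond by halting the cell cycle through CDKN1A (p21) and by activating genes of repair and apoptosis. Many of the mitotic genes are then repressed. HCT116 cells come from a mismatch-repair-deficient carcinoma of the colon and keep an epithelial character. Those p53 and mitosis programs are well known, so most of the account concerns metabolism, adhesion, signalling, RNA processing and protein synthesis.

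Total reads recovered from the deposited values lay between 18295550 and 18894312 in the DMSO samples and between 17442035 and 17531094 in the doxorubicin samples. Levels are given as normalized reads, which are reads divided by the size factor of the sample, as mean ± SD with n = 3 samples per group. Log2 changes are differences of the deposited variance-stabilized log2 values, doxorubicin minus DMSO, and they understate the change of genes with few reads. A gene is said to have risen or fallen where limma gave an adjusted p below 0.05 (Benjamini-Hochberg adjustment over all tested genes). Of 14195 genes with enough reads to test, 4591 rose and 4735 fell, which is 32.3% and 33.4% of them, or 65.7% in all. Larger changes were mostly rises. A rise of at least 1 log2 was called for 692 genes (4.87%), and a fall of that size for 209 genes (1.47%). These shares are the background against which the counts in each group below should be read. A bulk measurement cannot tell fewer cells with an RNA from less of the RNA per cell, and it gives levels relative to the other RNAs of the sample.

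**Figure D1:**
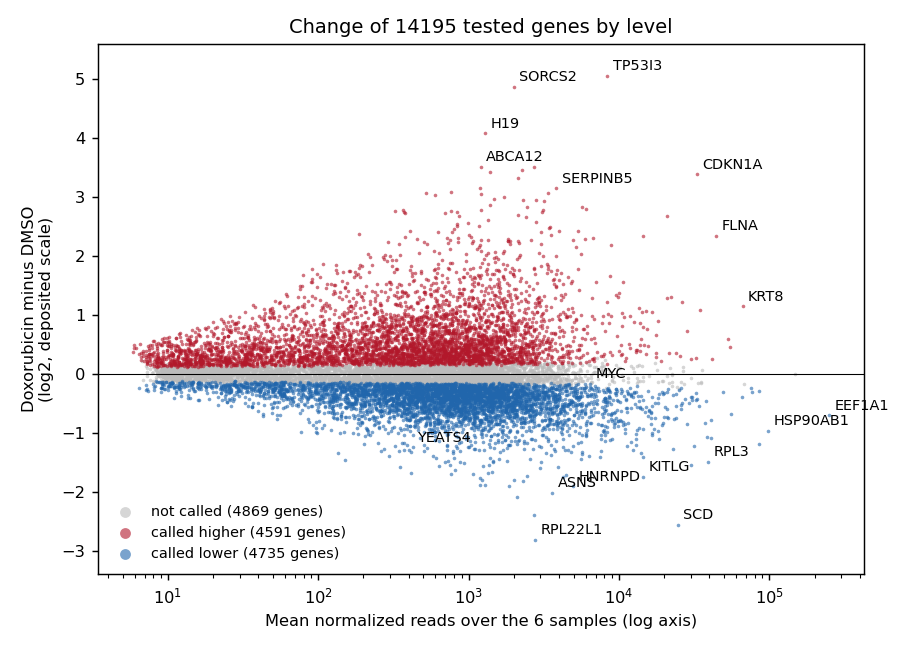
Change of each of the 14195 tested genes (log2, deposited scale, doxorubicin minus DMSO) against its mean level over the 6 samples (normalized reads, log axis). Red points are the 4591 genes called higher, blue points the 4735 called lower and grey points the 4869 not called; the largest rises exceed the largest falls.

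Direction varied with the level of the gene. When tested genes were split by mean level into 4 classes of equal size, 35.7% rose and 17.3% fell in the lowest class, while in the highest class 27.7% rose and 44.7% fell. Median log2 change went from 0.060 in the lowest class to -0.12 in the highest. Low genes have few reads, and the deposited scale compresses them, so fewer of them can be called. Genes with nearly no reads in DMSO could be tested only through their doxorubicin reads, and some of them count among the rises in the lists below. Genes without a read numbered 3266 to 3490 per DMSO sample and 2173 to 2319 per doxorubicin sample. Genes without a read in any DMSO sample and with reads in every doxorubicin sample numbered 345, against 34 genes in the reverse case. Doxorubicin samples therefore held RNA of more genes, at a slightly lower depth.

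The genes that bear on the question of the series came first. CDKN1A, the p53-induced inhibitor of cyclin-dependent kinases, had 5997, 5528 and 5273 normalized reads in the DMSO samples and 59834, 62526 and 59668 in the doxorubicin samples. It rose 10.8-fold (log2 change 3.39, SE 0.0764, adjusted p = 2.57e-12 with limma). MDM2, the ubiquitin ligase that limits p53, rose 5.34-fold, from 2126 ± 202 to 11345 ± 437. YEATS4 itself had 694, 612 and 698 normalized reads in the DMSO samples and 173, 193 and 188 in the doxorubicin samples. The groups did not overlap, and YEATS4 fell to a level 3.61-fold lower (log2 change -1.25, SE 0.0655, limma adjusted p = 3.58e-09). SIN3A, the scaffold of a histone deacetylase complex, fell from 1911 ± 60.5 to 1084 ± 88.3 normalized reads. The deacetylases HDAC2 and HDAC1 fell from 4623 ± 142 to 2959 ± 99.4 and from 6947 ± 69.6 to 5922 ± 242. The call of HDAC1 (limma adjusted p = 0.0113) was lost without doxorubicin replicate 1 (0.0719), without doxorubicin replicate 3 (0.0587) and with quantile normalization (0.153). TOP2A, the cell-cycle-linked topoisomerase that doxorubicin poisons, fell from 5582 ± 871 to 4270.1 ± 114, and TOP2B, its constitutive relative, fell from 2871 ± 304 to 1637 ± 95.7. MYC had 7129, 6945 and 6404 normalized reads in the DMSO samples and 6074, 6091 and 5958 in the doxorubicin samples, a log2 change of -0.17 that lay at the threshold (limma adjusted p = 0.0499). The call of MYC was lost with the omission of any single sample other than DMSO replicate 3, with adjusted p values from 0.0583 to 0.153, and with quantile normalization (log2 change -0.030).

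Canonical programs are given only for scale. All 28 tested members of a p53 target list rose, with a median of 1.78, and 23 of 25 mitosis genes fell, with a median of -1.14. Outside these lists the 15 largest rises ran from SORCS2 to S100A2 and the 15 largest falls from RPL22L1 to SLC7A11.

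SORCS2, a sortilin-family receptor for proneurotrophins, had 11.2, 12.9 and 6.79 normalized reads in the DMSO samples and 4085, 3804 and 4113 in the doxorubicin samples. It went from nearly silent to abundant, 389-fold (log2 change 4.88, SE 0.0662, limma adjusted p = 6.21e-14). H19, an imprinted long noncoding RNA, had 19.3, 21.8 and 20.4 normalized reads in the DMSO samples and 2570.0, 2561 and 2535 in the doxorubicin samples, a 125-fold rise (log2 change 4.08, SE 0.0589, limma adjusted p = 6.48e-14). ABCA12, which loads lipids into the lamellar granules of keratinocytes, rose from 62.8 ± 24.6 to 2341 ± 256. SULF2, an extracellular sulfatase that trims heparan sulfate, rose 18.1-fold, from 285 ± 20.8 to 5145 ± 115. AQP3, a channel for water and glycerol, rose 18.8-fold, from 229.6 ± 17.8 to 4318 ± 194. LAMP3, a lysosomal membrane glycoprotein, rose from 100.3 ± 1.84 to 2693 ± 220.1. AKR1B10, an aldo-keto reductase that acts on retinal, had 18.3, 13.9 and 5.82 normalized reads in the DMSO samples and 1021, 1069.7 and 1018 in the doxorubicin samples. FXYD3, a regulator of the sodium pump, rose from 126 ± 19.1 to 2278 ± 255. ACHE, the enzyme that splits acetylcholine, rose from 23.8 ± 4.46 to 1172 ± 65.7. In each of these genes every doxorubicin sample lay above every DMSO sample.

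Among the falls, RPL22L1, a paralog of the ribosomal protein RPL22, had 6005, 4433 and 4515 normalized reads in the DMSO samples and 493, 614 and 509 in the doxorubicin samples. This was the largest of these falls on the deposited scale, 9.26-fold (log2 change -2.81, SE 0.11, limma adjusted p = 1.75e-10). SCD, the desaturase that makes monounsaturated fatty acids, had 42016, 41051 and 43579.8 normalized reads in the DMSO samples and 7061, 6601 and 7241 in the doxorubicin samples, a fall of 6.06-fold (log2 change -2.56, SE 0.0739, limma adjusted p = 1.51e-11). MALL, a MAL-family protein of membrane rafts, fell from 4744 ± 201 to 741 ± 19.4. PRKACB, a catalytic subunit of protein kinase A, fell from 3220.4 ± 181 to 784 ± 48.0. KITLG, the ligand of the KIT receptor, fell from 22499 ± 3415 to 6521 ± 497. ARHGAP18, a GTPase-activating protein, fell from 3676 ± 346 to 902 ± 13.2. DEPDC1, HMMR, ASPM and G2E3, linked to cell division, had log2 changes of -1.89, -1.81, -1.76 and -1.70. The 6 samples of every one of these genes separated by group.

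**Figure D2:**
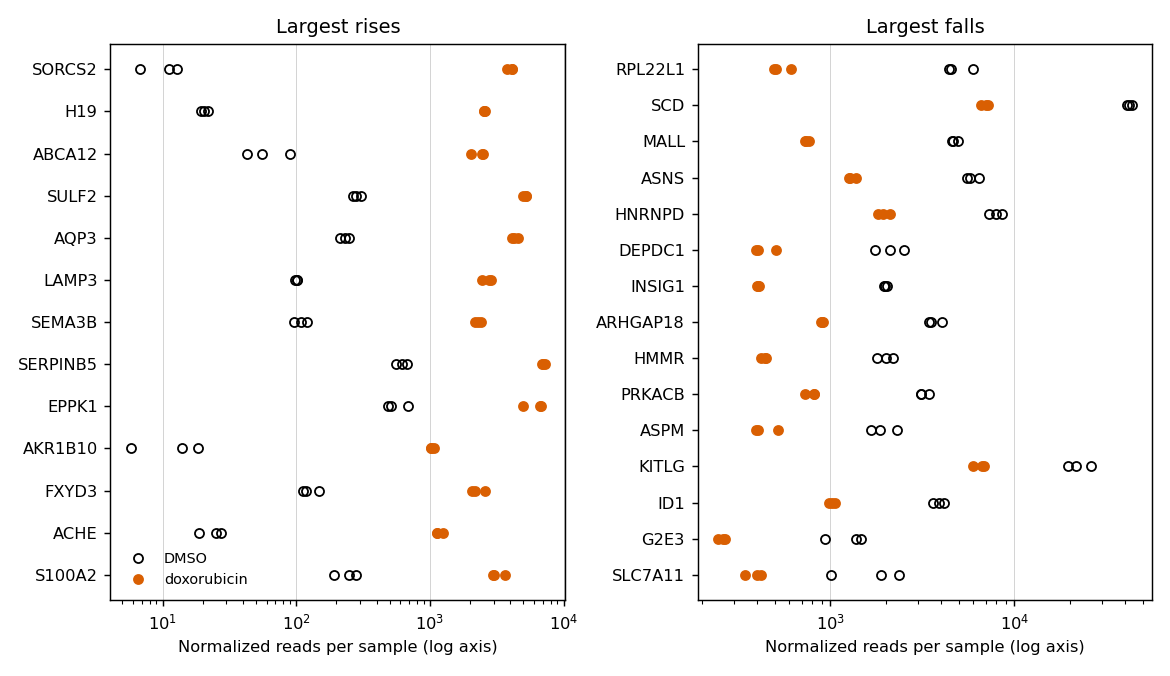
Normalized reads in each of the 6 samples (log axis) for the largest rises (left, 13 genes) and falls (right, 15 genes) outside the p53 and mitosis lists; open circles are DMSO samples and filled circles doxorubicin samples. In every gene shown the 3 samples of a group lie together and apart from the other group, with SORCS2 going from 10.3 to 4001 and RPL22L1 from 4984 to 539 on average.

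Several genes of stratified epithelium rose in this colon line, and so did keratins of simple epithelium. Keratins build the intermediate filaments of epithelia, with KRT8, KRT18 and KRT19 typical of simple and KRT5 and KRT15 of stratified layers. Of 14 tested keratins 12 rose and 1 fell (median log2 change 0.75). KRT80 rose from 128 ± 11.2 to 1461 ± 31.1 and KRT15 from 210.1 ± 17.5 to 917 ± 47.5. KRT8, already among the most abundant RNAs, had 47667, 39905 and 36397 normalized reads in the DMSO samples and 87802, 97252 and 89787 in the doxorubicin samples, and KRT19 rose from 15758 ± 1726 to 36919 ± 3521. KRT18, the partner of KRT8, rose less, with a log2 change of 0.33. KRT5 rose from 0.654 ± 0.567 to 52.6 ± 14.8 and KRT17 from 1.66 ± 0.576 to 55.3 ± 6.87, both from nearly no reads. Both could be tested only through their doxorubicin reads, and 6 keratins rose with at least 50 reads in every sample. KRT10 was the member that fell (log2 -0.27).

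S100 genes encode small calcium-binding proteins, many of them in a cluster with genes of the skin barrier. Of 11 tested 8 rose and 1 fell, the latter being S100PBP, which binds an S100 protein and is not one of them. S100A2, a p53-responsive member of basal epithelium, had 279, 249 and 193 normalized reads in the DMSO samples and 2954, 3631 and 3043 in the doxorubicin samples. S100A6 rose from 12667 ± 1413 to 31604 ± 3552 and S100A11 from 1723 ± 159.6 to 4372 ± 388. S100A4, linked to cell motility, was not called, at 1111 and 1192 normalized reads. The late cornified envelope genes of the same cluster were silent in DMSO. LCE1F had 1.02, 0 and 0 normalized reads per DMSO sample and 363, 395 and 366 per doxorubicin sample, and LCE1C had 0, 0 and 0 and 169.9, 204 and 176. FLG, which encodes filaggrin of the skin barrier, went from 1.02, 1.98 and 3.88 to 77.0, 56.0 and 77.9. The LCE1 genes are close copies of each other, so reads may be split between them. Of 13 listed genes of this cluster 5 had enough reads to test and all 5 rose; the family was chosen after its values were seen, and members silent in DMSO could be tested only because they were high with doxorubicin.

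Other barrier genes moved in the same direction, and so did enzymes of the same lists that are not all barrier genes. Peptidylarginine deiminases convert arginine to citrulline in proteins, and some members act on keratins and filaggrin. PADI3 rose from 31.2 ± 3.92 to 403 ± 3.57 and PADI4 from 1.99 ± 1.72 to 155 ± 14.3. Epidermal lipoxygenases act on the lipids of the barrier. ALOXE3 rose from 61.1 ± 12.1 to 396 ± 11.2 and ALOX12B from 62.3 ± 7.15 to 225 ± 15.3, while ALOX5, which makes leukotrienes, rose from 16.2 ± 2.12 to 423 ± 23.2. PTGES, which makes prostaglandin E2, rose from 421 ± 13.1 to 2049 ± 185 and PTGS2, the inducible cyclooxygenase, from 22.4 ± 10.7 to 61.7 ± 7.87. The dual oxidases release hydrogen peroxide at the apical surface. DUOX1 rose from 175 ± 17.9 to 1329 ± 66.5, and DUOX2 with its maturation factor DUOXA1 rose from 6.61 ± 2.04 to 73.1 ± 5.45 and from 5.604 ± 1.395 to 63.7 ± 8.16. EPPK1, a plakin that tethers keratin filaments, rose from 561 ± 111 to 6165 ± 996. These families too were chosen after their values were seen.

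Connexins form the gap junction channels between cells. Of 8 tested 7 rose, again in a family chosen after seeing it. GJB2 had 612, 614 and 704 normalized reads in the DMSO samples and 5620.1, 5431 and 5676 in the doxorubicin samples, a rise of 8.66-fold (log2 change 2.78, SE 0.0695, limma adjusted p = 4.94e-12). GJB5 rose from 102 ± 6.80 to 482 ± 55.0. GJC1, a gamma connexin, fell from 1186 ± 87.3 to 819 ± 85.3. Desmosomes, which anchor keratins at cell contacts, had 7 rises and 2 falls among 12 tested genes. DSC3, the desmocollin of basal layers, rose from 265 ± 50.9 to 1648 ± 173, while DSC2, the desmocollin of simple epithelium, fell from 832 ± 92.7 to 478 ± 31.6. Plakoglobin (JUP) rose from 5543 ± 615 to 11354 ± 102 and PERP from 3669.9 ± 41.4 to 7571 ± 182. Desmoplakin (DSP), abundant in these cells, was not called, at 5144 and 5930.5 normalized reads, but was called higher without DMSO replicate 3 (limma adjusted p = 0.0184) and without doxorubicin replicate 2 (0.0267).

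Tight and adherens junction genes were divided, with 15 rises and 8 falls among 31 tested. OVOL1, a repressor that holds the epithelial state, rose from 214 ± 28.8 to 709 ± 12.3 and ESRP2, an epithelial splicing regulator, from 921 ± 61.5 to 2243 ± 101. P-cadherin (CDH3) rose from 3160.3 ± 136 to 6791 ± 67.5. EPCAM, the adhesion molecule of simple epithelium, fell from 7198 ± 391 to 4938 ± 409, and occludin (OCLN), a strand protein of tight junctions, fell from 578 ± 39.3 to 328 ± 38.0. Intestinal differentiation genes were mostly too low to test. Of 13 tested out of 39 listed, 9 rose and 2 fell. CA2, a carbonic anhydrase of absorptive cells, rose from 831 ± 54.9 to 5242 ± 86.5. MUC2, the gel mucin of goblet cells, had 1.02, 2.98 and 2.91 normalized reads per DMSO sample and 184, 172 and 176 per doxorubicin sample. CEACAM1 rose from 16.9 ± 3.82 to 355 ± 15.8, and HNF4G, an intestinal transcription factor, fell from 92.4 ± 17.5 to 18.3 ± 0.838.

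As a check of identity, a list of 12 epithelial markers was present in every sample, with EPCAM, at 7198 and 4938 normalized reads, the lowest of KRT8, KRT18, KRT19 and EPCAM. Of these 12 markers 8 rose and 2 fell, EPCAM among the latter. Of 12 blood and immune markers only CD68 and LYZ had enough reads to test. CD68 fell from 256 ± 19.5 to 171 ± 19.9, and LYZ was at 23.2 and 29.6 normalized reads. Of 13 fibroblast and endothelial markers 4 were tested, and COL1A1, the highest of them, had 291 and 326. PDGFRB rose, but only to 21.7, 32.6 and 23.7 normalized reads per doxorubicin sample. VWF and PECAM1, called higher at a mean of 8.86 and 18.9 and 5.93 and 11.3 normalized reads in DMSO and doxorubicin, lost their calls without DMSO replicate 1 (limma adjusted p = 0.0540 and 0.143), and PECAM1 also without each of DMSO replicate 3 and doxorubicin replicates 1, 2 and 3 (0.0528 to 0.104).

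The basement membrane and its receptors rose. Laminins and collagens are the fibers and sheets of the matrix on which epithelia sit, and of 30 such genes tested 26 rose and 1 fell, or 2 with quantile normalization (median log2 change 0.84). LAMA3 and LAMB3 are laminin chains of stratified epithelium. LAMA3 had 119, 124 and 149 normalized reads in the DMSO samples and 1425, 1266 and 1544 in the doxorubicin samples, and LAMB3 rose from 414 ± 51.6 to 2117 ± 26.4. COL17A1, the collagen of hemidesmosomes, had 18.3, 20.8 and 18.4 normalized reads in the DMSO samples and 572, 521 and 592 in the doxorubicin samples. ITGB4, the integrin of the same structure, rose from 5603 ± 735 to 14065 ± 707, and ITGA3, a laminin receptor, from 5492 ± 729.7 to 14469 ± 275. Perlecan (HSPG2) rose from 737 ± 62.0 to 3644 ± 737, agrin (AGRN) from 1313 ± 119 to 3453 ± 220.1 and LAMA5 from 2592 ± 199 to 5482 ± 744. LAMB1 was the member that fell, from 1385 ± 32.9 to 914 ± 59.7. LAMA2, a laminin chain outside the list and named after its values were seen, also fell, from 193 ± 29.5 to 61.5 ± 6.09. Integrins in all had 12 rises and 3 falls in 18 tested genes. The fibronectin receptor chains moved the other way: ITGA5 fell from 1484 ± 184 to 800.1 ± 20.1 and ITGB1, the common beta chain, from 9677 ± 815 to 6558 ± 208.

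Matrix proteases and their inhibitors had 13 rises and 2 falls in 19 tested genes (1 fall without DMSO replicate 3, doxorubicin replicate 1 or doxorubicin replicate 3). SERPINB5 (maspin) rose 11.4-fold, from 619.6 ± 58.8 to 7033 ± 166. The membrane protease MMP14 rose from 174 ± 5.67 to 733 ± 19.3 and tissue plasminogen activator (PLAT) from 155 ± 12.5 to 629 ± 16.2. PLAUR, the receptor for urokinase, fell from 588 ± 44.3 to 401 ± 22.8.

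**Figure D3:**
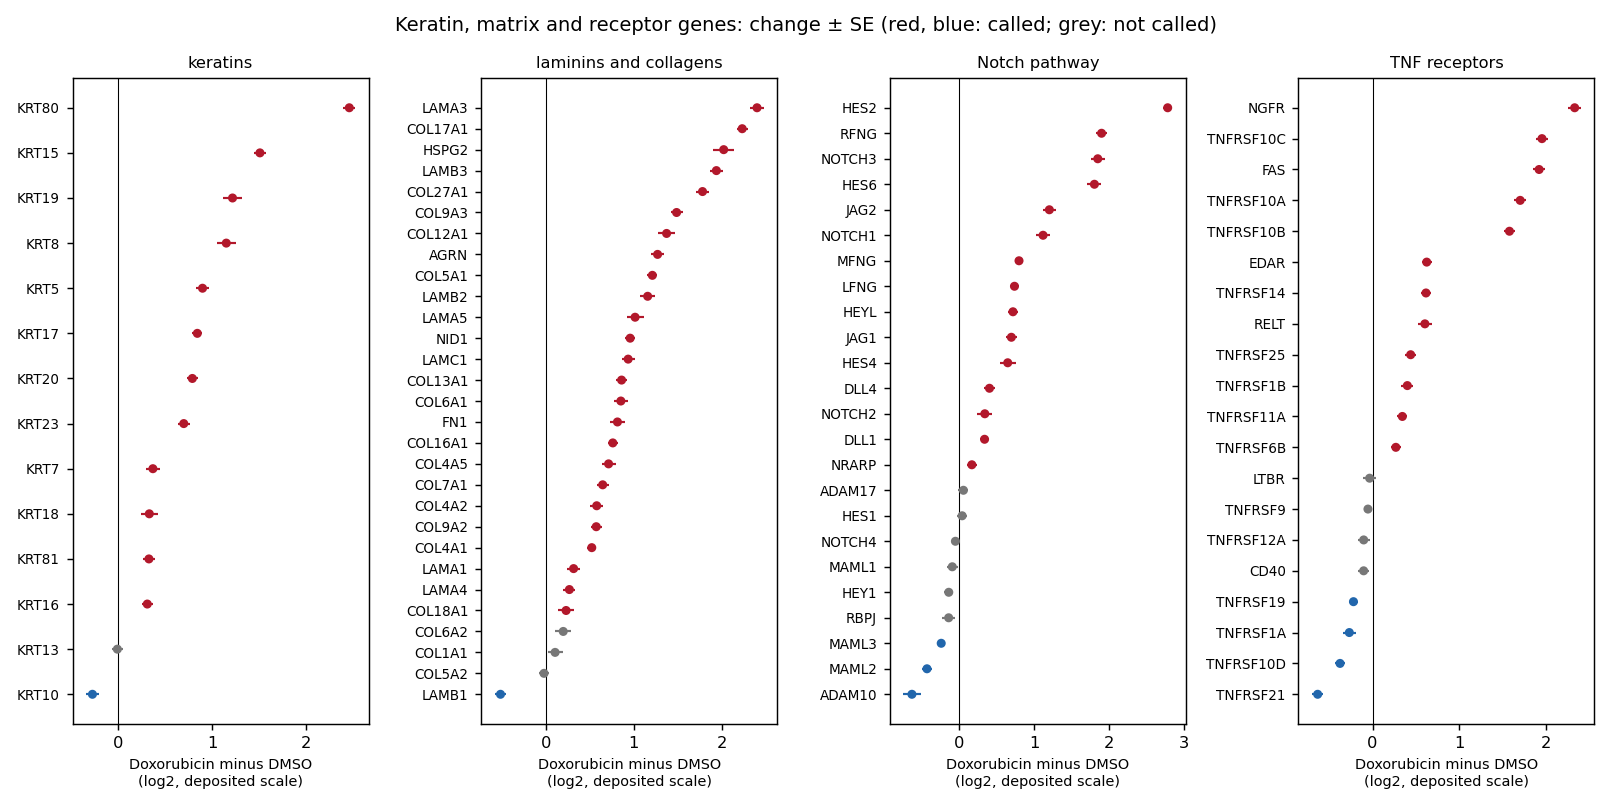
Log2 change of tested keratins, laminins and collagens, Notch pathway genes and TNF receptors (deposited scale, doxorubicin minus DMSO); points are the limma estimates and bars ± SE over 3 against 3 samples. Red members were called higher, blue called lower and grey not called: 12 of 14 keratins and 25 of 29 laminins and collagens shown were called higher.

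Actin and its regulators rose with the matrix genes. Of 29 tested actin and serum response factor genes 20 rose and 4 fell. Filamin A (FLNA), which crosslinks actin filaments, had 16779, 13863 and 12967 normalized reads in the DMSO samples and 76976, 66122 and 80161 in the doxorubicin samples, and filamin C (FLNC) rose from 2126 ± 299.7 to 7065 ± 701. ACTA2, the actin of smooth muscle, rose from 52.5 ± 6.84 to 651 ± 51.4. The 2 cytoplasmic actins parted: ACTB rose from 42459.6 ± 2559 to 63876 ± 3855, whereas ACTG1 fell from 85282 ± 4389.8 to 69188 ± 4389 (log2 change -0.30, but 0.023 and not called with quantile normalization). These actins are close in sequence, so reads may be shared. MYH9, the heavy chain of nonmuscle myosin, rose from 10807 ± 769 to 22451 ± 897. 

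YAP and TEAD regulate genes that respond to cell shape and tension. Of 19 tested genes of this list 13 rose and 4 fell. CYR61 and CTGF, secreted matricellular targets, rose from 225 ± 16.7 to 2124 ± 75.4 and from 33.7 ± 4.44 to 719 ± 50.7. AJUBA, a LIM protein that binds the LATS kinases, rose from 742 ± 65.1 to 3445 ± 297, AMOTL2 from 830.5 ± 52.0 to 3114 ± 182 and the receptor kinase AXL from 1232 ± 79.5 to 3816 ± 243. YAP1 itself rose from 2185 ± 139 to 3461 ± 269. TEAD2 fell from 720.5 ± 50.02 to 356 ± 20.5.

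More tubulin genes fell than rose. Of 22 tubulin and microtubule genes 4 rose and 11 fell. TUBB, the main beta tubulin here, had 47742, 43813 and 42991 normalized reads in the DMSO samples and 14916, 15823 and 14944 in the doxorubicin samples, a 2.95-fold fall (log2 change -1.54, SE 0.0770, limma adjusted p = 2.17e-09). TUBA1B fell from 22597 ± 1432 to 11716 ± 661 and TUBA1C from 7050.4 ± 434 to 2891 ± 222. TUBA4A rose from 1605 ± 96.4 to 4282 ± 396 and TUBB6 from 2201 ± 231 to 3527 ± 143. Tubulin genes are near-identical copies, and their reads are hard to assign.

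Guidance receptors form another group that rose. Semaphorins are secreted or membrane cues read by plexins and neuropilins, and 15 of 26 tested genes rose while 5 fell (2 without DMSO replicate 2, and 3 without any other single sample but DMSO replicate 3). SEMA3B, a p53-inducible secreted semaphorin, had 95.6, 120.1 and 109 normalized reads in the DMSO samples and 2195, 2277 and 2400.0 in the doxorubicin samples, and SEMA3F rose from 348 ± 52.5 to 1482 ± 62.3. Their coreceptor NRP2 rose from 26.8 ± 3.09 to 350.5 ± 17.5. The plexins PLXNB1, PLXNB2 and PLXNB3 all rose, from 409 ± 26.1 to 1345 ± 83.6, from 5428 ± 782 to 9943 ± 687 and from 37.1 ± 5.49 to 561 ± 34.0. SEMA3A fell from 379 ± 46.3 to 128 ± 5.41, so members of the same class went in opposite directions. Ephrins bind Eph receptor kinases on neighbouring cells. EFNB1 had 526, 492 and 469 normalized reads in the DMSO samples and 5195, 5027 and 5137 in the doxorubicin samples, and EPHA2, a p53-responsive receptor, rose from 3052 ± 207 to 14638 ± 526. EPHB3 rose from 112 ± 18.3 to 727 ± 17.9, while EFNB2 fell from 703 ± 35.2 to 408 ± 41.02. The Eph and ephrin list held 9 rises and 3 falls in 15 tested genes (5 falls without DMSO replicate 3).

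Notch receptors signal between touching cells through ligands of the Jagged and Delta families. Of 24 tested genes 15 rose and 3 fell (median 0.37), with 5 falls with quantile normalization and 1 with at least 50 reads in every sample. Among receptors, NOTCH3 rose from 671 ± 97.7 to 2918 ± 276, NOTCH1 from 863 ± 105 to 2102 ± 244 and NOTCH2 from 2037 ± 111 to 2652 ± 433. NOTCH2 lost its call without DMSO replicate 2 (limma adjusted p = 0.0536) and without doxorubicin replicate 3 (0.0539). The ligand JAG2 rose from 1700.4 ± 221 to 4158 ± 212. RFNG, a fringe enzyme that glycosylates Notch, rose from 521 ± 61.4 to 2459.5 ± 94.6. Of the HES factors, HES2 had 190.1, 169 and 177 normalized reads in the DMSO samples and 2188, 2322 and 2263 in the doxorubicin samples and HES6 rose from 765 ± 132 to 3141 ± 189.5, but HES1, the classical effector, was not called at 316 and 329. ADAM10, the protease that starts Notch cleavage, fell from 2189 ± 447 to 1323 ± 106.

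Wnt genes went in both directions. The ligand WNT4 had 19.3, 6.95 and 13.6 normalized reads in the DMSO samples and 312, 323 and 298 in the doxorubicin samples. WNT9A rose from 20.5 ± 2.76 to 238 ± 31.2, WNT11 from 10.6 ± 4.03 to 151 ± 10.1 and WNT7B from 405 ± 59.7 to 1015 ± 12.1. The Wnt ligand and receptor list had 11 rises and 6 falls in 21 tested genes, but 5 rises and 6 falls with at least 50 reads in every sample. Targets of the pathway were divided, 6 up and 7 down of 17 (7 and 6 with quantile normalization or without DMSO replicate 1, 6 and 5 without doxorubicin replicate 2, and 8 and 6 without a filter). TCF7L2, the main TCF factor of colon cells, fell from 2705 ± 83.1 to 1060.4 ± 50.3, and the feedback genes RNF43 and AXIN2 fell from 857 ± 22.6 to 392 ± 28.8 and from 176 ± 2.95 to 103 ± 6.58. TCF7 rose from 617 ± 18.3 to 1299 ± 57.7 and cyclin D1 (CCND1) from 11306 ± 214 to 19246 ± 428.

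In the TGF-beta superfamily 8 of 12 tested ligand genes rose and 0 fell. There was 1 fall without DMSO replicate 3, without doxorubicin replicate 2 or with the replicate number as a block, and 2 with quantile normalization. GDF15, a stress cytokine and p53 target, rose from 4593 ± 528 to 24141 ± 1537. BMP7 rose from 254 ± 27.4 to 1005 ± 38.0 and the procollagen protease BMP1 from 749.5 ± 86.1 to 2678 ± 99.7. BMP antagonist chordin (CHRD) rose from 102 ± 9.70 to 586 ± 23.7 and the activin binder FSTL3 from 397 ± 53.5 to 1656 ± 78.6. ID1, a direct target of BMP signalling that blocks differentiation factors, had 4135, 3907 and 3615 normalized reads in the DMSO samples and 1020.3, 1064 and 984 in the doxorubicin samples, a 3.80-fold fall (log2 change -1.74, SE 0.0707, limma adjusted p = 3.26e-10). SMAD1, a transducer of BMP signals, fell from 551 ± 19.7 to 250.01 ± 15.2, while SMAD3, a transducer of TGF-beta, rose from 2028 ± 70.0 to 3586 ± 201.

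Growth factor signalling through ERBB receptors feeds the ERK kinases, which induce their own inhibitors. In a list of 15 tested receptors, ligands and inhibitors 6 rose and 4 fell. The counts were 3 and 3 with at least 50 reads in every sample and 5 and 6 with quantile normalization, and falls went to 2 without DMSO replicate 3 or doxorubicin replicate 2. Among ligands, HBEGF rose from 148 ± 4.40 to 555 ± 38.3 and TGFA from 1087 ± 16.5 to 2489.7 ± 129.5, whereas EREG, the most abundant, fell from 10017 ± 1291 to 5365 ± 535. ERRFI1, an inhibitor of ERBB receptors, fell from 11141 ± 539 to 4948 ± 291. The ERK feedback list had 13 rises and 7 falls in 21 genes. DUSP5 rose from 1819 ± 155 to 6411 ± 196 and DUSP14 from 661 ± 15.5 to 2156 ± 106. The ETS factors ETV1 and ETV5 fell from 605 ± 41.3 to 99.9 ± 18.9 and from 1832 ± 30.6 to 789 ± 57.6, SPRY4 fell from 2389 ± 83.8 to 834 ± 49.6 and PHLDA1 from 12376 ± 568 to 5613 ± 94.8. Phosphatases and phosphodiesterases held large single changes as well. Protein tyrosine phosphatases had 7 rises and 10 falls in 25 tested genes. Among the rises, PTPRE went from 252 ± 2.57 to 2452 ± 129.7 and PTPRU from 1201 ± 179 to 4299.9 ± 190.2. PDE4B, which degrades cyclic AMP, fell from 1209 ± 79.1 to 295 ± 8.43, and PDE4C rose from 23.5 ± 4.88 to 280.1 ± 34.5.

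AP-1 factors are dimers of Jun, Fos, ATF and Maf proteins that answer stress and growth signals. Of 13 tested genes 10 rose and 0 fell. ATF3 had 491, 498 and 450.2 normalized reads in the DMSO samples and 1921, 1975 and 1935 in the doxorubicin samples, and FOSL2 rose from 333 ± 21.6 to 994 ± 112, FOSL1 from 1875 ± 119 to 3438 ± 258 and JUNB from 1491 ± 176 to 2637 ± 179. FOS was not called, at 128 and 134 normalized reads. A list of EGR, KLF and other immediate early genes was divided, with 12 rises and 9 falls in 28 tested genes. Of these, 6 rises and 1 fall reached at least 1 log2. Among the falls, EGR1, an immediate early factor, went from 1429 ± 155 to 696 ± 29.5, KLF6 from 1500.5 ± 118 to 524 ± 22.7 and KLF2 from 666 ± 118 to 259.6 ± 5.51.

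AP-1 proteins bind the letters TGANTCA. These were found on either strand in the promoter window (250 bases before the start of the gene to 50 after it, RefSeq, GRCh38.p14) of 8.78% of 524 genes that rose by at least 1 log2, of 3.91% of 179 that fell by that size and of 4.62% of all 11036 tested genes with a window. Windows were those of the first RefSeq start listed per gene, and a match in such a window is a description of its letters only. The window of LAMA3 held the letters at 2 places and is shown with them in capitals because LAMA3 led the laminins.
LAMA3 (chr18:23872770-23873069, strand +): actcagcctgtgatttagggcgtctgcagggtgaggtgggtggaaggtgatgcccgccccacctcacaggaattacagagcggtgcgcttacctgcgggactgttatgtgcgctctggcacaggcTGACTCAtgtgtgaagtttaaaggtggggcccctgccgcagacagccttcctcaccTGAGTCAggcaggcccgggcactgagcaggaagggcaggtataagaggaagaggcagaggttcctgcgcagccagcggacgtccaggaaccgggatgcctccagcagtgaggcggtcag

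Death receptors and other members of the TNF receptor family carry signals for apoptosis or survival. Of 20 tested 12 rose and 4 fell. The receptors of TRAIL, TNFRSF10A, TNFRSF10B and the decoy TNFRSF10C, rose from 526 ± 18.8 to 2143 ± 165, from 2353 ± 46.4 to 7429 ± 229 and from 33.4 ± 2.14 to 516 ± 49.6. The other decoy, TNFRSF10D, fell from 1156 ± 14.8 to 849 ± 35.7. FAS rose from 295 ± 29.9 to 1616 ± 22.4. NGFR, the low-affinity neurotrophin receptor of the same family, had 262, 227 and 195 normalized reads in the DMSO samples and 1881, 1809.7 and 1879 in the doxorubicin samples. TNFRSF21 fell from 1943 ± 59.0 to 1185 ± 64.7. Inside the cell, APAF1, the scaffold of the apoptosome, rose from 404 ± 23.0 to 2224 ± 253, while CYCS, the cytochrome c gene, fell from 9564 ± 796 to 6791 ± 329. CFLAR, which blocks caspase-8, rose from 561 ± 38.1 to 1339 ± 148. The inflammasome sensor NLRP1 rose from 84.9 ± 13.7 to 525 ± 40.8 and DFNA5 (gasdermin E) from 188 ± 6.64 to 558 ± 24.8. BCL2L1, which encodes BCL-XL, rose from 3019 ± 198 to 6802 ± 624. It was the only rise among 4 tested antiapoptotic BCL2 family genes, of which 2 fell. Of 14 tested proapoptotic genes of the family 8 rose and 1 fell, with rises of BBC3, PMAIP1 and BAX (log2 changes 1.61, 1.55 and 1.02).

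Innate immune genes rose in part. Of 20 tested genes for sensing nucleic acids and for interferon signalling 13 rose and 3 fell (1 without doxorubicin replicate 1). TLR3, a sensor of double-stranded RNA, had 69.1, 63.5 and 68.9 normalized reads in the DMSO samples and 607, 518 and 579 in the doxorubicin samples. TMEM173 (STING) rose from 626 ± 41.5 to 2095 ± 115, MAVS from 3077 ± 109 to 5316 ± 541, STAT3 from 1709 ± 74.0 to 4593 ± 273 and IRF1 from 413 ± 11.6 to 987 ± 12.9. IFNGR2, a chain of the interferon gamma receptor, fell from 837 ± 8.89 to 472 ± 50.5. Of 25 tested interferon effectors 11 rose, 2 fell and 12 were not called, with 4 falls without DMSO replicate 1 and 1 without doxorubicin replicate 1. ISG15, a ubiquitin-like modifier, had 1763, 1577 and 1347 normalized reads in the DMSO samples and 7666, 9481 and 7893 in the doxorubicin samples. IFI6 rose from 191 ± 17.8 to 619.6 ± 64.5 and HERC5, the ligase that attaches ISG15, from 329 ± 13.9 to 877 ± 48.4. USP18, a classical interferon-induced gene, was not called, at 210.3 and 243 normalized reads.

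Antigen presentation by MHC class I needs peptides cut by the proteasome, pumped by TAP and trimmed in the endoplasmic reticulum. Of 12 tested genes 9 rose and 2 fell (1 without DMSO replicate 2, without doxorubicin replicate 3 or without a filter). TAP1, the peptide pump, had 1171, 975 and 938 normalized reads in the DMSO samples and 5969, 5926 and 6234 in the doxorubicin samples, a 5.88-fold rise (log2 change 2.35, SE 0.0794, limma adjusted p = 6.09e-11). HLA-B rose from 2958 ± 41.8 to 5994 ± 449, HLA-C from 5349 ± 369 to 8269 ± 621 and B2M from 6006 ± 745 to 7143 ± 488. The B2M groups overlapped, and its call was lost without DMSO replicate 2 or 3 (limma adjusted p = 0.122 and 0.0970) and without doxorubicin replicate 2 or 3 (0.101 and 0.0804). The trimming enzymes ERAP1 and ERAP2 rose from 244 ± 6.16 to 518 ± 67.4 and from 42.7 ± 2.95 to 193 ± 7.33. TAPBP (tapasin) fell from 1065 ± 167 to 763 ± 6.46. HLA genes are polymorphic near-copies, so their counts are uncertain. Within the proteasome, of which 24 of 37 genes fell, the immune subunits PSMB9 and PSMB10 and the activator PSME2 were among the 4 that rose, with log2 changes of 0.50, 0.40 and 0.36. PSMC6, an ATPase of the proteasome cap, fell from 1870.2 ± 139 to 998 ± 98.8.

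Interferon-regulated promoters carry the interferon-stimulated response element, searched here on either strand by its paired GAAA core. It was found in the window of 81.0% of 21 tested interferon effectors and of 2.62% of all tested genes with a window, and in 4.01% of genes that rose by at least 1 log2. The list was built from interferon-induced genes, so this share describes the list and not the response to doxorubicin. Windows of ISG15 and TAP1 are shown because both genes rose, with the matched letters in capitals; each holds 2 matches that overlap.
ISG15 (chr1:1013247-1013546, strand +): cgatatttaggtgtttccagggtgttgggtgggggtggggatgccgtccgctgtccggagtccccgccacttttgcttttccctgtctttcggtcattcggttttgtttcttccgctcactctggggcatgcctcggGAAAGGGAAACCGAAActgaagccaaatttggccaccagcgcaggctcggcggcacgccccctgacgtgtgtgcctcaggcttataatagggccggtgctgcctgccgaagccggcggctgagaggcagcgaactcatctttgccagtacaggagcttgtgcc
TAP1 (chr6:32853655-32853954, strand -): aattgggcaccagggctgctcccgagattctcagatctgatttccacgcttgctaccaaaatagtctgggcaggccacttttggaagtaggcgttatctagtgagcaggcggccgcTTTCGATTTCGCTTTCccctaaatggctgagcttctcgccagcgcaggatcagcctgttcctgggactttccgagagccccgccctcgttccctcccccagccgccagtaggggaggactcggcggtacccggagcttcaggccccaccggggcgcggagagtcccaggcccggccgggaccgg

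Inflammatory genes of the NF-kB group mostly rose: 9 of 15 factors and inhibitors rose and 1 fell (2 without DMSO replicate 1, and 0 without DMSO replicate 2 or doxorubicin replicate 1). TNIP1, an inhibitor of the pathway, rose from 753 ± 75.7 to 2197 ± 102, RELB from 178 ± 29.2 to 399 ± 32.3 and NFKBIE from 309 ± 21.5 to 598 ± 26.7. CSF1, the growth factor of macrophages, had 90.5, 74.4 and 64.0 normalized reads in the DMSO samples and 892, 981 and 911 in the doxorubicin samples. ICAM1, an adhesion receptor for leukocytes, had 2.03, 1.98 and 4.85 normalized reads per DMSO sample and 245, 282 and 257 per doxorubicin sample. IL18 fell from 835 ± 106 to 344 ± 42.5. CXCL8 and CXCL1, common in senescent cells, were not called and stayed low, the first at 27.2 and 28.6 and the second at 9.92 and 11.3 normalized reads. In a list of surface ligands for immune cells 6 of 11 tested genes rose. ULBP2 and MICB, which mark stressed cells for lymphocytes, rose from 149 ± 3.32 to 379 ± 10.6 and from 825 ± 31.5 to 1209 ± 47.0. CD274 (PD-L1), which instead inhibits T cells, rose from 45.7 ± 2.67 to 127 ± 10.6. The 5 tested APOBEC3 genes, cytidine deaminases that restrict viruses, all rose. APOBEC3C rose from 502 ± 42.9 to 1467 ± 65.8, APOBEC3D from 22.9 ± 6.16 to 195 ± 12.6 and APOBEC3F from 213 ± 16.2 to 517 ± 13.4. APOBEC3 genes are tandem near-copies.

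Genes of amino acid supply fell. ATF4 is the factor that turns on amino acid synthesis, transport and tRNA charging when amino acids run short. Of 19 tested genes of this list 14 fell and 5 rose, with a median of -0.93. ATF4 itself had 11083, 11058 and 10827 normalized reads in the DMSO samples and 3900.5, 4471 and 3694 in the doxorubicin samples, a 2.73-fold fall (log2 change -1.41, SE 0.0794, limma adjusted p = 6.60e-09). ASNS, asparagine synthetase, had 6448, 5535 and 5718 normalized reads in the DMSO samples and 1263, 1376 and 1277 in the doxorubicin samples, a 4.52-fold fall (log2 change -2.02, SE 0.0753, limma adjusted p = 1.53e-10). CHAC1, which degrades glutathione, fell from 716 ± 95.7 to 112 ± 6.196, and TRIB3, a pseudokinase that feeds back on ATF4, fell too (log2 -1.30). Members that rose were ATF3, SESN2, CEBPB, NUPR1 and PPP1R15A (the last pair and TRIB3 were named after their values were seen), and SESN2, a p53-induced brake on mTORC1, rose from 698 ± 70.5 to 2147 ± 29.1.

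Transport followed the enzymes. The cystine carrier SLC7A11 had 1011, 1894 and 2373 normalized reads in the DMSO samples and 399, 342 and 422 in the doxorubicin samples, with the widest DMSO spread, relative to its mean, among the 15 largest falls. The cationic amino acid carrier SLC7A1 fell from 3815 ± 234 to 1275 ± 172, the glutamine carriers SLC38A2 and SLC38A1 fell from 15853 ± 1836 to 6620.5 ± 573 and from 8205 ± 934 to 3894 ± 315, and SLC7A5, the leucine carrier, fell from 17535 ± 2223 to 8929.5 ± 309. Of 25 tested amino acid transporters, a family chosen after its values were seen, 13 fell and 6 rose. SLC43A2 and SLC36A1, the latter a lysosomal carrier, rose from 292 ± 31.1 to 694 ± 25.4 and from 322 ± 47.4 to 583 ± 39.5.

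Aminoacyl-tRNA synthetases load each amino acid on its tRNA. Of the 20 cytosolic enzymes 16 fell, 1 rose and 3 were not called, with a median of -0.66 and 2 rises without DMSO replicate 1 or with quantile normalization. MARS, for methionine, had 5283, 5305 and 5062 normalized reads in the DMSO samples and 1823, 1898 and 1890.0 in the doxorubicin samples. AARS (alanine) fell from 6911 ± 33.6 to 2618 ± 67.6, GARS (glycine) from 6636 ± 147 to 2579.7 ± 78.0 and CARS (cysteine) from 2822 ± 88.5 to 1242 ± 72.4. EPRS and YARS fell from 8090.3 ± 359.9 to 3943 ± 50.4 and from 5570.1 ± 237 to 2826 ± 104. SARS, for serine, was the exception and had 4873, 4599.7 and 4410.4 normalized reads in the DMSO samples and 7288, 8326 and 7251 in the doxorubicin samples. XPOT, which exports tRNA from the nucleus, fell from 3866 ± 290.1 to 1467 ± 32.6.

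Serine synthesis and folate enzymes provide one-carbon units for purines. All 12 tested genes were called, 9 lower and 3 higher (1 with quantile normalization). PHGDH, the entry enzyme of serine synthesis, fell from 3843 ± 332 to 1660.2 ± 139 and PSAT1, the next one, from 5682 ± 285 to 2686 ± 101. MTHFD2 fell from 9838 ± 339 to 6239.7 ± 88.8 and SHMT2 from 6734 ± 419 to 4522 ± 291. In purine synthesis 10 of 13 genes fell, led by PAICS, from 12106 ± 592 to 5429 ± 136, and GART, from 5352 ± 229.9 to 2751 ± 57.6. PCK2, the mitochondrial form of PEP carboxykinase, fell from 1258 ± 139 to 418 ± 10.6. Pyrimidine genes did not share this, with 4 rises and 3 falls in 9 (4 and 4 without DMSO replicate 3). Ribonucleotide reductase rose: RRM2 went from 8836 ± 317 to 16358 ± 368 and RRM1 from 5694 ± 469 to 8233 ± 198.

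The C/EBP-ATF response element that ATF4 binds was searched as TGATGNAA on either strand. Its letters were found in the window of 41.7% of 12 tRNA synthetase genes and of 23.5% of 17 genes of the ATF4 list, against 1.64% of all tested genes with a window and 6.15% of those that fell by at least 1 log2. The ATF4 list was built from ATF4 targets, and ATF4 is known to turn on tRNA charging. These 2 list shares therefore describe the lists and not the response to doxorubicin. Windows of ASNS, CHAC1, AARS and CARS are shown because all 4 genes fell by more than 1 log2 and held a match, with the matched letters in capitals. Genes that also fell by more than 1 log2 but had no match or no window include MARS, GARS, ATF4, TRIB3 and SLC7A11.
ASNS (chr7:97872359-97872658, strand -): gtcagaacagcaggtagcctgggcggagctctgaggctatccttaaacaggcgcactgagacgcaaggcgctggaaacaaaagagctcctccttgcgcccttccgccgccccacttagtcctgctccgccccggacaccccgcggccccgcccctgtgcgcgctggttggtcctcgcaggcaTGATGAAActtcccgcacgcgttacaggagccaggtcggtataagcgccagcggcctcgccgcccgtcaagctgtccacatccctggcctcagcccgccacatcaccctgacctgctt
CHAC1 (chr15:40953221-40953520, strand +): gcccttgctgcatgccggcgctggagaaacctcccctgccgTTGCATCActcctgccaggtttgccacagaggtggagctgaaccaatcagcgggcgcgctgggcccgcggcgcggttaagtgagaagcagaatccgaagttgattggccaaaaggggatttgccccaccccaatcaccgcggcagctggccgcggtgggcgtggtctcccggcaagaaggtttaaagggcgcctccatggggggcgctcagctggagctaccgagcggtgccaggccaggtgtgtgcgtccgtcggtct
AARS (chr16:70289457-70289756, strand -): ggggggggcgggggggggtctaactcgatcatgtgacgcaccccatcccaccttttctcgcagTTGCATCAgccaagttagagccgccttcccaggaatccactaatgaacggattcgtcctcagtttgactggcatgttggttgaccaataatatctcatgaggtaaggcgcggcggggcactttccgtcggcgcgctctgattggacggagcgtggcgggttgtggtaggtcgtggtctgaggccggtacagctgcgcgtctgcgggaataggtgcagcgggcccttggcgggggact
CARS (chr11:3057374-3057673, strand -): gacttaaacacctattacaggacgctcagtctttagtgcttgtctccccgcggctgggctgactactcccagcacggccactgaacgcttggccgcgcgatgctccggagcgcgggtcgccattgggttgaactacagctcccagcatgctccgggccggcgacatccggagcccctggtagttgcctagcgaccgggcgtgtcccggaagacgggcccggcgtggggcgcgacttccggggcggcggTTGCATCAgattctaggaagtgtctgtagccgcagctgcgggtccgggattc

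**Figure D4:**
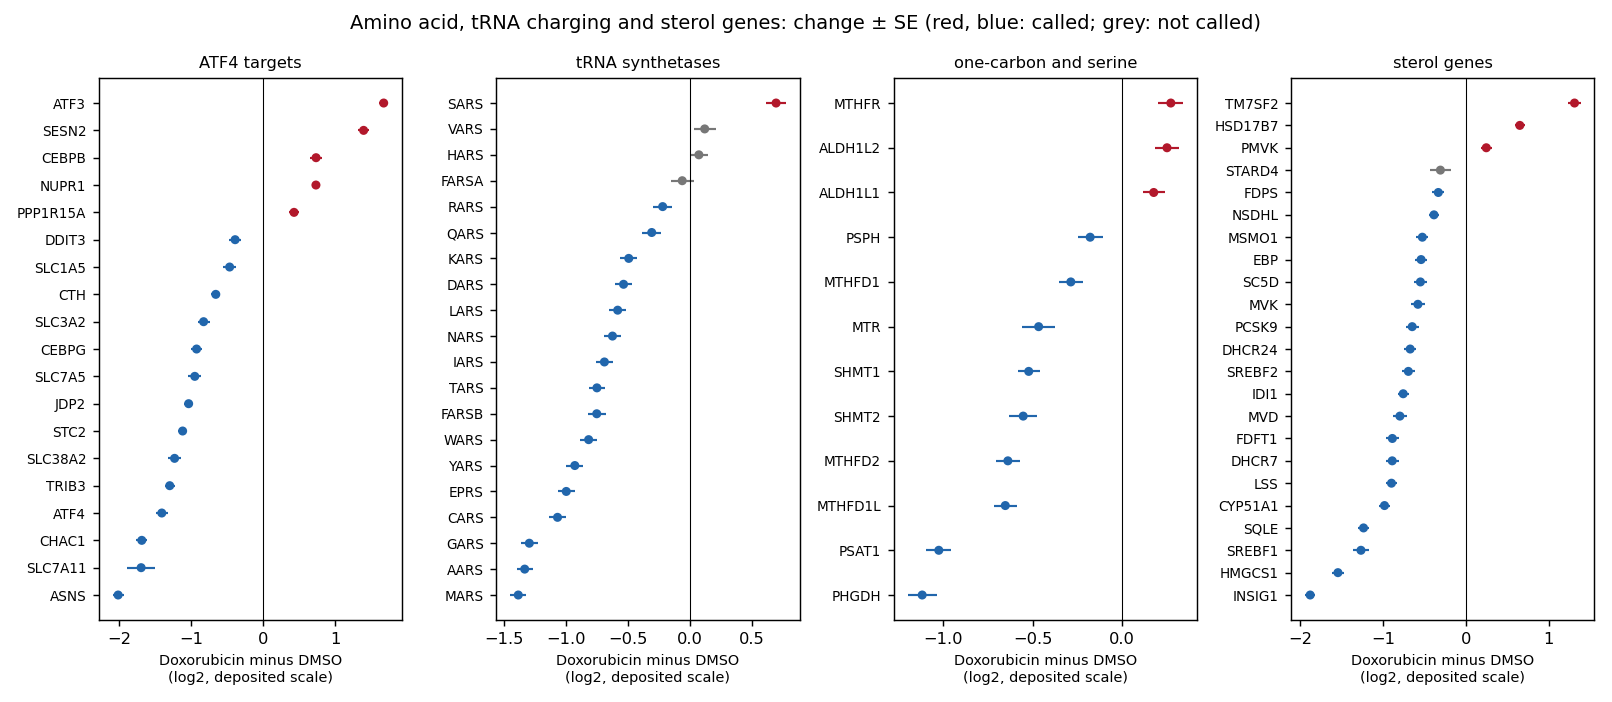
Log2 change of tested genes of the ATF4, tRNA synthetase, one-carbon and sterol lists (deposited scale, doxorubicin minus DMSO); points are limma estimates and bars ± SE over 3 against 3 samples. Called falls (blue) hold 14 of 19 ATF4 genes, 16 of 20 synthetases and 19 of 23 sterol genes shown, while SARS, ATF3, SESN2 and TM7SF2 stand among the called rises (red).

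Cholesterol genes fell together. The SREBP factors switch on the enzymes from acetyl-CoA to cholesterol when sterols are low, and INSIG proteins hold them back. Of 25 tested genes 20 fell and 3 rose, with a median of -0.68. INSIG1 had 2047, 1962 and 1973 normalized reads in the DMSO samples and 409, 399 and 405 in the doxorubicin samples, a 4.93-fold fall (log2 change -1.88, SE 0.0611, limma adjusted p = 4.23e-11). HMGCS1, early in the pathway, had 2081, 2036 and 2289.6 normalized reads in the DMSO samples and 572, 631 and 609 in the doxorubicin samples. SQLE, which oxidizes squalene, fell from 2019 ± 43.7 to 745 ± 40.3. SREBF1 and SREBF2, the factors themselves, fell from 5292 ± 778 to 2061 ± 60.4 and from 4836 ± 375 to 2902 ± 185. TM7SF2, a sterol reductase, rose from 521 ± 36.2 to 1573 ± 139.7. The efflux pump ABCA1 rose from 25.8 ± 8.60 to 429 ± 100.4.

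Fatty acid synthesis was divided, with 9 falls and 6 rises in 16 genes. FASN, the synthase, fell from 29460.4 ± 4517 to 17234 ± 1485, in addition to SCD above. The acyl-CoA synthetases ACSL3 and ACSL5 fell from 3400.3 ± 608 to 1277 ± 33.9 and from 2717 ± 121 to 1123 ± 37.2. FADS3 and FADS2, desaturases of polyunsaturated chains, rose from 581 ± 33.7 to 2304 ± 113 and from 411 ± 49.1 to 891 ± 7.40. In oxidation CPT1A, the carrier step into mitochondria, rose from 1784 ± 38.2 to 2999 ± 165 and ACADVL from 3082 ± 111 to 6303 ± 291, while ACADM fell from 1329 ± 55.8 to 815 ± 12.2.

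SREBP-regulated promoters often hold a CCAAT box, the site of the factor NF-Y. The letters CCAAT were found on either strand in the window of 78.9% of 19 sterol genes, of 36.5% of all tested genes, of 50.8% of genes that fell by at least 1 log2 and of 31.5% of genes that rose by that size. The mitosis list, where the box is also known, had it in 85.0% of 20 genes. The shares in the sterol and mitosis lists describe the lists and not the response to doxorubicin. Windows of HMGCS1 and INSIG1 are shown as members of the group, with each CCAAT box in capitals.
HMGCS1 (chr5:43313363-43313662, strand -): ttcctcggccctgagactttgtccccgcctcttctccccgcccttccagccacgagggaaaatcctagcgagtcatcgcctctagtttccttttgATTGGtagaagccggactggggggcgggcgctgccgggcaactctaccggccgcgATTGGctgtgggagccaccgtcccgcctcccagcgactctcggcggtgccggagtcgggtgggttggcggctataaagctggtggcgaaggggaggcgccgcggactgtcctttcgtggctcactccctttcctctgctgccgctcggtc
INSIG1 (chr7:155297628-155297927, strand +): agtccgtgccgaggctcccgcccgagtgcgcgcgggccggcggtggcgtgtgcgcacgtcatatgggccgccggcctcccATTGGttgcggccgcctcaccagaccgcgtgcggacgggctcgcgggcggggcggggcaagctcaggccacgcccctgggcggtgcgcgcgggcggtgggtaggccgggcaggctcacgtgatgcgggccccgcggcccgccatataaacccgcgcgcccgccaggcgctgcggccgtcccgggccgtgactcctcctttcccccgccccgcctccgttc

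In central carbon metabolism GAPDH had 166414, 144273 and 138221 normalized reads in the DMSO samples and 141526, 160691 and 145531 in the doxorubicin samples and was not called. Of 20 glycolysis genes 8 rose and 7 fell, with 7 and 7 without DMSO replicate 3 or doxorubicin replicate 2 and 6 and 6 without doxorubicin replicate 3. The glucose carrier SLC2A1 rose from 1411 ± 105 to 5309 ± 0.648, while HK2, the first kinase, fell from 1569 ± 33.6 to 819.7 ± 51.1. NDRG1, a gene of hypoxia and of p53, rose from 1359 ± 47.4 to 5341 ± 126. Nuclear genes of oxidative phosphorylation fell in 24 of 45 cases and rose in 2 (9 without DMSO replicate 1, 5 with quantile normalization, and 1 without DMSO replicate 2, DMSO replicate 3 or doxorubicin replicate 2). The catalytic ATP synthase subunit ATP5B fell from 26455 ± 147 to 15663 ± 721, and SDHA rose from 2187 ± 18.1 to 3245 ± 100.0 while its partner SDHB fell from 3513 ± 252 to 2149 ± 74.3. IDH2 rose from 847 ± 100.2 to 1763 ± 168 and IDH1, its cytosolic counterpart, fell from 2405 ± 115 to 1195 ± 30.5.

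SAT1, which acetylates polyamines and so starts their breakdown, had 5600.3, 5113 and 5111 normalized reads in the DMSO samples and 15245, 16727 and 16092 in the doxorubicin samples. ODC1, which makes them, was not called at 14686 and 14120.4, and antizyme OAZ1 fell from 12128 ± 717 to 6381 ± 587. Heme oxygenase (HMOX1) rose from 404 ± 9.30 to 1267 ± 68.5, whereas the NRF2 targets TXNRD1 and GCLC fell from 11790.4 ± 645 to 6788 ± 222 and from 1671 ± 94.8 to 899.9 ± 45.1. Iron storage and uptake parted, as ferritin heavy chain (FTH1) rose from 21170.2 ± 871 to 35390.2 ± 2964 and the transferrin receptor (TFRC) fell from 7999.9 ± 533 to 5042 ± 395. Of 6 tested genes of the metallothionein list 4 fell, among them MT2A from 6343 ± 911 to 3553 ± 410.2 and MT1E from 5046 ± 872 to 2662 ± 179.9. The zinc exporter SLC30A1 rose from 174 ± 22.7 to 999 ± 185, and the metal-responsive factor MTF1 was not called, at 588 and 527 normalized reads. Metallothionein genes are near-copies. GSTP1, a glutathione transferase, rose from 11964 ± 1089 to 29678 ± 2901, and ALDH1A3, which makes retinoic acid, rose from 9684 ± 418 to 20549 ± 1009. CYP4F3, CYP4F12 and CYP4F2, adjacent near-copies that oxidize fatty acids and vitamins, rose from 13.3 ± 3.81 to 243 ± 25.2, from 9.26 ± 1.46 to 83.1 ± 4.89 and from 9.65 ± 3.27 to 81.9 ± 12.5.

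Lysosomes degrade what autophagy and endocytosis deliver, at a pH set by the vacuolar proton pump. Of 19 tested pump genes 12 rose and 2 fell. The proteolipid ATP6V0C rose from 3538 ± 389 to 6817 ± 434, the catalytic subunit ATP6V1A from 1456 ± 121 to 2562 ± 137 and ATP6AP2 from 1508 ± 77.1 to 2769 ± 58.2. ATP6V0A4, a subunit of renal and ear epithelia, went from 3.05, 6.95 and 3.88 to 75.1, 90.6 and 80.9 normalized reads. Lysosomal genes had 14 rises and 6 falls in 27. Cathepsin D (CTSD) rose from 2833 ± 458 to 5899 ± 181 and PSAP, the precursor of saposins, from 9673 ± 408 to 17776 ± 452. TFEB, the master factor of lysosomal genes, rose from 92.9 ± 18.3 to 374 ± 49.0. LAMP2 fell from 1413 ± 171 to 901 ± 7.52. Autophagy genes had 15 rises and 5 falls in 29. DRAM1, a p53-induced lysosomal protein, rose from 474 ± 36.2 to 1402 ± 40.5 and the kinase ULK1 from 497 ± 29.5 to 1084 ± 40.1, but ATG5 fell from 1125 ± 48.8 to 767 ± 49.8.

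Among other membrane proteins, ABC transporters had 18 rises and 9 falls in 32 tested. ABCG4, a lipid exporter, rose from 53.6 ± 3.07 to 562 ± 10.0, and ABCB6 and ABCB9 rose from 497 ± 60.0 to 2104 ± 24.8 and from 248 ± 34.6 to 958 ± 73.2. ABCC1 (MRP1), which exports anthracyclines among other drugs, rose from 2163 ± 128 to 3090.1 ± 279. ABCC4 fell from 1309 ± 90.1 to 787 ± 96.0 and ABCG2, another drug exporter, was not called at 95.7 and 109.9. In the large family of solute carriers 108 of 259 rose and 75 fell, so that the share called was near the background of both directions (65.7%). SLC12A4, a potassium chloride cotransporter, rose from 518 ± 56.0 to 4305 ± 40.3 and SLC4A11 from 314 ± 34.0 to 2017 ± 28.1. Orphan and adhesion G protein-coupled receptors had 28 rises and 9 falls in 51, with ADGRG1 rising from 676 ± 70.5 to 4968 ± 88.6. The purinergic receptor P2RY2 rose from 149 ± 35.8 to 1363 ± 56.4.

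The RNA-binding machinery fell widely. hnRNP proteins coat nascent transcripts and regulate splicing, and 18 of 19 tested fell and 0 rose (median -0.76). HNRNPD (AUF1), which binds AU-rich RNA, had 7256, 7963 and 8548 normalized reads in the DMSO samples and 1926, 2117 and 1826 in the doxorubicin samples, a 4.05-fold fall (log2 change -1.91, SE 0.0809, limma adjusted p = 4.65e-10). HNRNPA2B1, the most abundant, fell from 32320.4 ± 2445 to 13279 ± 917, HNRNPR from 5852 ± 463 to 2609 ± 58.6 and SYNCRIP from 10904 ± 723 to 5223 ± 107. HNRNPA1 fell from 2414 ± 64.3 to 764 ± 69.0, with many processed copies in the genome that can take its reads. SR proteins, which promote exon inclusion, fell in 10 of 12 cases and rose in 0. SRSF3 had 10457, 8761 and 8712 normalized reads in the DMSO samples and 3339, 3561 and 3361 in the doxorubicin samples, SRSF7 fell from 5009.5 ± 343 to 2049 ± 77.7 and SRSF2 from 7461 ± 334 to 3189.9 ± 129.5. Of 29 core snRNP genes 16 fell, 1 rose and 12 were not called, with 2 rises without DMSO replicate 3 or doxorubicin replicate 2 and 4 with quantile normalization.

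**Figure D5:**
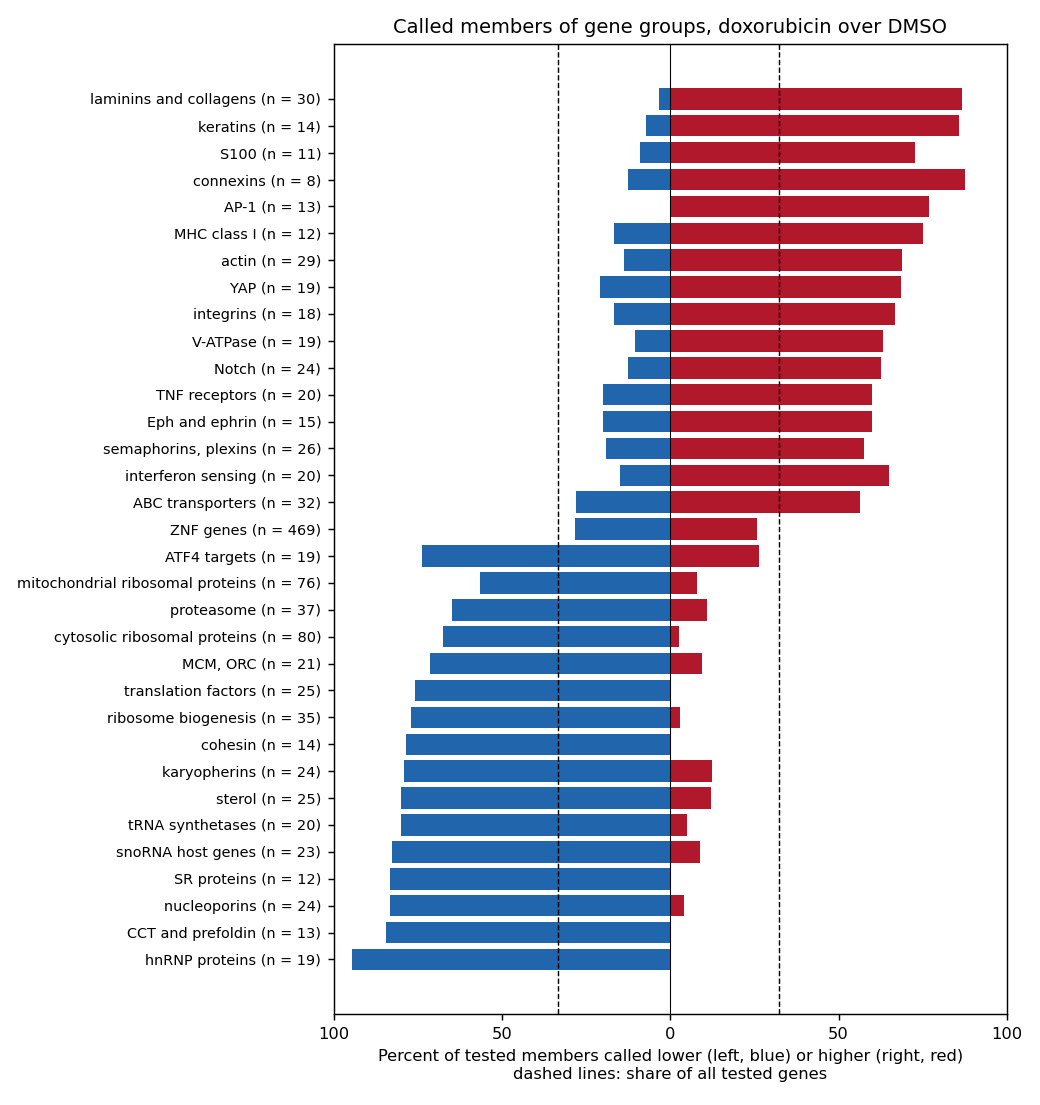
Share of tested members called lower (blue, to the left) or higher (red, to the right) in 33 gene groups, in percent; n is the number of tested members and dashed lines give the shares over all tested genes, 33.4% lower and 32.3% higher. Among the groups drawn, those of adhesion, cytoskeleton and signalling lie on the higher side at the top. Those of RNA, protein folding and protein synthesis lie on the lower side at the bottom, with ZNF genes near the background. The groups drawn were picked with their values known, so this split describes the choice. Not drawn are tubulins (4 rises and 11 falls in 22 tested genes) and divided groups such as Wnt targets and tight and adherens junctions.

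Nuclear transport carries these proteins and RNAs through the pore. Karyopherins fell in 19 of 24 cases and rose in 3 (1 without DMSO replicate 2 or doxorubicin replicate 1), and nucleoporins fell in 20 of 24. KPNA2, an importin alpha linked to proliferation, had 11250.3, 10466 and 10976 normalized reads in the DMSO samples and 4208, 4318 and 4228 in the doxorubicin samples. KPNB1, the importin beta, fell from 14519.7 ± 753 to 7459.5 ± 146 and IPO5 from 10538 ± 918 to 5353 ± 183. RAN, whose gradient drives transport, fell from 18321 ± 2372 to 11494 ± 496. NUP210, a membrane nucleoporin of differentiated cells, was the pore gene that rose, from 3768 ± 429 to 9450.0 ± 902.

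Protein synthesis genes fell by modest amounts from very high levels. Of 80 tested cytosolic ribosomal protein genes and paralogs 54 fell and 2 rose, or 6 without DMSO replicate 1 (median -0.37). RPL3 had 60319.7, 58299 and 55358 normalized reads in the DMSO samples and 19491, 22714 and 19359 in the doxorubicin samples, RPL10A fell from 20345 ± 3982 to 7855 ± 622 and RPL13A from 6287 ± 228 to 2454 ± 209.5. RPS27L, a p53-induced paralog, rose from 1656 ± 220.4 to 6092 ± 621, and RPS19 rose from 18896 ± 1401 to 24229 ± 2603. Ribosomal protein genes have many processed pseudogenes, so their counts depend on how shared reads were assigned. Ribosome biogenesis genes fell in 27 of 35 cases and rose in 1. Nucleophosmin (NPM1) had 58684, 47797 and 51543 normalized reads in the DMSO samples and 24111, 25769 and 25027 in the doxorubicin samples, fibrillarin (FBL) fell from 6782 ± 412 to 3639 ± 384 and nucleolin (NCL) from 30686 ± 2368 to 21643 ± 1725. Host genes of snoRNAs, the guides of rRNA modification, fell in 19 of 23 and rose in 2, ZFAS1 from 2939.5 ± 409.7 to 1558 ± 123 and GAS5 from 2567 ± 63.3 to 1471 ± 73.4. The polymerase I list was divided, with 4 rises and 5 falls in 14 tested genes. UBTF, the factor that opens rRNA genes, fell from 3368 ± 55.8 to 1874 ± 81.0, whereas the polymerase I subunits POLR1E and POLR1A rose from 1196 ± 45.5 to 2653 ± 129 and from 1665 ± 98.2 to 2434 ± 411.

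Translation factors fell in 19 of 25 tested genes and rose in 0 (1 with quantile normalization). EEF1A1, the elongation factor with the most reads of the list, had 355535, 291088 and 287329 normalized reads in the DMSO samples and 182815, 197661 and 191160.0 in the doxorubicin samples. With quantile normalization, which gives the gene of highest level the same value in every sample, it was not called. EIF3E fell from 16673 ± 2609.6 to 7344 ± 334 and EIF5A from 22232 ± 1044 to 10964 ± 770.3, while EEF2 was not called at 72135 and 63547. The chaperonin CCT folds actin and tubulin, and with its helper prefoldin 11 of 13 genes fell and 0 rose. TCP1 fell from 12211 ± 1006 to 6706 ± 304, CCT5 from 14768 ± 678 to 8213 ± 434 and CCT2 from 13724 ± 2076 to 7635 ± 71.7, and the 8 ring subunits had log2 changes from -0.84 (TCP1) to -0.59 (CCT7). Heat shock proteins fell in 10 of 16 cases and rose in 4. HSP90AA1 had 129342, 110228 and 119131 normalized reads in the DMSO samples and 49841, 56417 and 50839.6 in the doxorubicin samples, HSP90AB1 fell from 129401 ± 2666 to 66212 ± 3564 and the mitochondrial chaperonin HSPD1 from 44448 ± 1796 to 18935 ± 1254. BAG3, a cochaperone of selective autophagy, rose from 2146 ± 177 to 4183 ± 57.9 and the small chaperone HSPB1 from 13549 ± 1370.1 to 21508 ± 2701. In the endoplasmic reticulum 14 of 22 genes fell and 3 rose. HERPUD1, of the degradation pathway, fell from 1213 ± 68.5 to 481 ± 27.9 and the chaperone HSP90B1 from 25104 ± 3406 to 14981 ± 1161, while EDEM1 rose from 404 ± 51.4 to 972 ± 58.6.

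Chromatin genes fell in several classes. The histone variants H2AFZ and H2AFX fell from 18173 ± 3011 to 7686 ± 587 and from 4225 ± 534 to 1695 ± 86.0. H2A.Z is the variant that the SRCAP and TIP60 complexes, which contain GAS41, place in chromatin, and 13 of 19 tested subunit genes of these complexes fell and 1 rose (3 without DMSO replicate 1, and 2 without doxorubicin replicate 2 or with quantile normalization). MORF4L2 fell from 6362 ± 699.8 to 2989.9 ± 74.2, ACTL6A from 1728 ± 135 to 836 ± 24.9 and the acetyltransferase KAT5 (TIP60) from 760.0 ± 49.2 to 399 ± 13.7. Among YEATS genes, YEATS2 and MLLT3 fell from 1415 ± 60.0 to 1086 ± 33.8 and from 172 ± 18.4 to 114 ± 9.26, and MLLT1 was not called at 1799.8 and 1788. The linker histone H1FX fell from 2398 ± 349.6 to 962 ± 85.0. HMG proteins, which bend DNA or loosen nucleosomes, fell in 8 of 10 cases. HMGB1 had 26639.9, 23699 and 25254 normalized reads in the DMSO samples and 11268, 12442 and 11228 in the doxorubicin samples, HMGB2 fell from 10493 ± 407 to 5254 ± 466 and HMGA1 from 48009 ± 3918 to 26706 ± 1496. At the nuclear envelope LMNB1 fell from 4124 ± 174 to 2095 ± 76.5 and LBR, the lamin B receptor, from 3683 ± 291 to 1597 ± 78.5, while LMNA, the lamin of differentiated cells, rose from 10066 ± 905 to 13700.2 ± 709. Lower LMNB1 and HMGB2 RNA is known from senescent cells, but senescence was not measured here.

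Cohesin, the ring that holds sister chromatids and shapes loops, fell in 11 of 14 genes. RAD21 had 9824, 10423 and 11648 normalized reads in the DMSO samples and 5387, 5107 and 5278 in the doxorubicin samples, and STAG1 and STAG2 fell from 1202 ± 220.0 to 613 ± 55.9 and from 3325 ± 325 to 1952 ± 83.1. Condensin fell in 7 of 8, NCAPD2 from 7344 ± 87.9 to 3548 ± 109.8, and NCAPH2, of condensin II, rose from 1954 ± 335 to 2624 ± 171. CBX3, a heterochromatin protein, fell from 8224 ± 438 to 3868 ± 369. Corepressor genes were divided, 11 down and 6 up of 23. TBL1X and TBL1XR1, of the NCoR complex, fell from 1202 ± 21.1 to 375 ± 13.4 and from 2528 ± 243 to 1173 ± 48.5, while SIN3B rose from 878 ± 78.4 to 1330.2 ± 2.99 against the fall of SIN3A. SIRT2, a cytoplasmic deacetylase, rose from 345 ± 28.5 to 1077 ± 53.5.

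Repair genes went in both directions. In nucleotide excision repair 6 of 12 rose and 2 fell, with the p53-regulated damage sensors XPC and DDB2 rising from 1016 ± 42.3 to 3099 ± 30.0 and from 991 ± 93.8 to 3025 ± 143. POLH, the polymerase that bypasses lesions, rose from 603 ± 39.7 to 2516 ± 223, and PCNA, the sliding clamp, from 4927 ± 178 to 11807 ± 644. Of 15 base excision and mismatch repair genes 10 fell and 2 rose. Of 21 recombination genes 13 fell and 3 rose, and of 13 Fanconi genes 8 fell and 1 rose (5 and 2 without DMSO replicate 3, and 0 rises without DMSO replicate 2). End joining had 5 falls and 3 rises in 10 genes, and break signalling 7 falls and 3 rises in 14. NBN, of the complex that senses breaks, had 1392, 1469.7 and 1718 normalized reads in the DMSO samples and 581, 542 and 534 in the doxorubicin samples. BRCA1 fell from 1292 ± 349 to 716 ± 26.3 and BARD1 from 579 ± 38.9 to 298 ± 24.7, but RAD51C rose from 1598 ± 69.8 to 4182 ± 264. The Ku proteins of end joining fell, XRCC6 from 26327 ± 2541 to 15658 ± 1042 and XRCC5 from 20089 ± 1998 to 12628 ± 396, and so did TP53BP1, from 1890.3 ± 121 to 1059.5 ± 5.49. MDC1, which reads phosphorylated H2AX, fell from 1966 ± 66.2 to 843 ± 14.5 and the kinase CHEK1 from 1423 ± 115 to 718 ± 47.3. The replicative helicase genes MCM6 and MCM7 fell from 6054 ± 81.6 to 2452 ± 32.3 and from 14746 ± 848 to 7281 ± 407, within a licensing list of 15 falls and 2 rises in 21.

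Families defined by a protein domain were more divided. Of 469 tested ZNF genes, many of them DNA-binding repressors, 121 rose and 133 fell, both shares below those of all genes. Rises and falls were 120 and 119 without DMSO replicate 3 and 122 and 116 without doxorubicin replicate 2. ZNF385A, which binds p53, rose from 1137 ± 97.8 to 5162 ± 291 and ZNF440 from 178 ± 28.3 to 1160.5 ± 83.5. Tripartite motif genes had 23 rises and 10 falls in 46. TRIM8 rose from 1118 ± 78.9 to 4327 ± 91.1, TRIM35 from 487 ± 38.4 to 1904 ± 101 and TRIM26 from 1357 ± 45.8 to 4340.1 ± 37.0, and TRIM29, of stratified epithelia, went from 6.10, 5.95 and 3.88 to 257, 248 and 272 normalized reads. Among F-box genes FBXO2, which recognizes glycoproteins, rose from 1547 ± 265 to 9151 ± 812 within a family of 14 rises and 19 falls in 54. KLHL30 rose from 8.55 ± 4.36 to 739 ± 15.3, within a family of KLHL and KBTBD genes with 8 rises and 17 falls in 34. Of the E2 ubiquitin enzymes, chosen after seeing them, 19 of 33 fell, with UBE2S, of the anaphase-promoting complex, falling from 8258 ± 827 to 2916 ± 258. In a family of genes for intraflagellar transport and the BBSome of the cilium 9 rose and 10 fell: BBS2 and BBS1 rose from 503 ± 22.3 to 1519.9 ± 26.7 and from 274 ± 16.8 to 757 ± 26.5, and IFT52 and IFT80 fell from 718 ± 58.2 to 437 ± 13.7 and from 572 ± 98.3 to 342 ± 38.6.

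Transcription factors of other classes gave single large changes. NR2F1, an orphan nuclear receptor, fell from 2171 ± 55.3 to 542 ± 13.03, together with its antisense transcript NR2F1-AS1, from 328 ± 21.6 to 82.9 ± 10.2, whose reads cannot be told from those of NR2F1 where they overlap because the use of strand in counting is not stated. NR4A1 rose from 214 ± 19.9 to 741 ± 11.2, VDR, the vitamin D receptor, from 534 ± 39.3 to 1168 ± 30.5 and ESRRA from 1039.9 ± 118 to 2475 ± 71.0, while PPARG fell from 658 ± 37.8 to 269.5 ± 4.42. The clock repressor BHLHE40 rose from 989 ± 23.1 to 2431 ± 49.4 and CLOCK fell from 1593 ± 290.2 to 792 ± 63.3. POLR2A, the largest subunit of RNA polymerase II, rose from 6772 ± 458 to 14091 ± 1000.5, and the elongation factors ELL and ELL2 rose from 496 ± 41.8 to 1048 ± 4.63 and from 661 ± 78.1 to 1498 ± 13.4. The polymerase II list had 4 rises and 5 falls in 12 tested genes, and the elongation list 10 rises and 6 falls in 22. E2F7, a p53-induced repressor, rose from 791 ± 79.3 to 2414 ± 324 and RB1 from 1278 ± 179 to 2201 ± 189.9. CDKN2B (p15) rose from 113 ± 4.77 to 521 ± 6.25, and the CDKN2A locus next to it fell from 1074 ± 174 to 482 ± 10.2.

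Long noncoding RNAs other than H19 went in both directions. Of 162 tested LINC genes 47 rose and 37 fell, but with quantile normalization 26 rose and 53 fell. LINC00152 rose from 159 ± 20.7 to 482 ± 56.9 and LINC00998 fell from 1272 ± 226 to 572 ± 36.6. MIR22HG, the host of a microRNA, rose from 38.1 ± 3.77 to 219 ± 14.02, and MIR100HG fell from 2012 ± 336 to 1018 ± 58.5. Of 310 antisense genes 66 rose and 72 fell (34 and 129 with quantile normalization, 93 and 83 without a filter). Without DMSO replicate 2, DMSO replicate 3 or doxorubicin replicate 1 the rises and falls were 66 and 63, 66 and 64, and 63 and 62. UNC5B-AS1 rose from 21.2 ± 1.91 to 325 ± 19.4; without strand these counts may hold reads of the partner gene.

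Genes nearly silent in DMSO and clearly present with doxorubicin numbered 65, counted as under 10 normalized reads in every DMSO sample and over 50 in every doxorubicin sample. No gene met the reverse rule. PLA2G4D, a phospholipase of psoriatic skin, had the largest change on the deposited log2 scale, which compresses low values, with 3.05, 9.92 and 8.73 normalized reads in the DMSO samples and 751, 707 and 735 in the doxorubicin samples. CBS, which makes cystathionine from homocysteine and serine, had 2.03, 4.96 and 1.94 normalized reads in the DMSO samples and 610.4, 712 and 616 in the doxorubicin samples. RIMS4, SYT8 and CPLX2, all of vesicle release, went from 0.339 ± 0.587 to 215 ± 29.4, from 2.95 ± 1.92 to 203 ± 14.8 and from 1.64 ± 1.51 to 195 ± 30.8. CPXM1, a carboxypeptidase-like secreted protein, went from 1.32 ± 0.573 to 181 ± 7.32. TENM4, a teneurin of neural adhesion, had no read in any DMSO sample and 153, 156 and 168 normalized reads with doxorubicin. These genes were chosen by their own values, and no test is given for them as a set. LCE1F, LCE1C, ICAM1, TRIM29 and MUC2, described above, belong to the same 65.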

How the data were processed

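RNA was measured by Illumina sequencing of TRIzol extracts in 3 doxorubicin and 3 DMSO samples. The submitters' processing notes name, with no role or order, TopHat2 2.1.0, Bowtie 1.0.1, DESeq2, HTSeq, CASAVA 1.4, Trimmomatic 0.36 and the genome builds hg19 and mm9. The deposited values are variance-stabilized log2 values, as their form shows: inverting the transformation gave whole reads (within 0.01) for 100% of values, and with them each sample's depth and size factor. Antisense and near-identical genes stay uncertain, since the use of strand and of shared reads in counting is not given in the sources used here.

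Genes with at least 10 reads in at least 3 samples were tested with limma 3.58.1 (R 4.3.3; mean-dependent prior variance, Benjamini-Hochberg adjustment over 14195 genes, threshold 0.05) on the deposited values, a fit tested on simulated data with known changes. Members and lists were chosen with earlier results of these data known, so no list is tested as a set. Named genes are CDKN1A, MDM2, MYC, YEATS4, TOP2A, SIN3A, HDAC1 and HDAC2, then the 15 largest non-overlapping rises and falls with a mean of at least 50 normalized reads. Per list up to 6 called genes of largest change, 3 of highest level, 3 per direction and 4 uncalled ones were eligible; exceptions are marked, and some genes the rule picks are not reported here or drawn in figures, though counts include them. Of 21159 symbols 20365 matched RefSeq. Alternatives were other filters, scalings, a replicate block, voom on recovered reads, 1 prior variance, and the omission of each sample. Figures were drawn with matplotlib 3.10.9.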

Additional observations from a re-analysis of the deposited data

How the results depend on the processing

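The count of called genes stayed within 1.5 times of 9326 under all 13 alternatives: 9851 without a filter, 7597 with at least 50 reads in every sample, 9281 on log2 of normalized reads plus 1, 9305 with voom on recovered reads, 9554 with quantile normalization (4047 higher, 5507 lower), 9261 with 1 prior variance, and 8414 to 9526 with 1 sample left out. Same-numbered samples had correlations of deviations of -0.39, 0.083 and 0.15, and differently numbered ones ran from -0.39 to 0.42. These values show no pairing by number, but with 3 samples per group they cannot exclude it. With the replicate number as a block 9238 genes were called, and MYC lost its call (adjusted p = 0.0895, limma). Of 440 genes printed and tested, 421 kept direction and call under every alternative in which they were tested. The filter at 50 reads tests fewer genes, and under it counts of rises in lists with many low genes fell: laminins and collagens from 26 to 16, integrins 12 to 6, keratins 12 to 6, TNF receptors 12 to 7, TGF-beta ligands 8 to 5, Wnt ligands and receptors 11 to 5, intestinal genes 9 to 3, GPR genes 28 to 14, LINC genes 47 to 15, antisense genes 66 to 14 and the epidermal cluster 5 to 0; falls went from 37 to 16 in LINC and from 72 to 35 in antisense genes. Rises went with quantile normalization from 2 to 9 in ribosomal proteins and from 1 to 4 in snRNP genes, and without DMSO replicate 1 from 2 to 9 in oxidative phosphorylation and from 2 to 6 in ribosomal proteins; falls of semaphorin genes went from 5 to 2 without DMSO replicate 2. The cause was not tested.

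Sign changes were seen in genes near 0 that were not called, apart from ACTG1 (0.023 with quantile normalization). With quantile normalization the log2 change was -0.030 for ABCG2, -0.093 for CXCL1, -0.091 for CXCL8, -0.069 for FOS, -0.023 for HES1, -0.019 for LYZ, 0.0025 for MLLT1 and 0.12 for ODC1. With 1 sample left out in turn the change ran from -0.013 to 0.085 for CXCL1, -0.014 to 0.056 for CXCL8, -0.056 to 0.078 for GAPDH, -0.0049 to 0.075 for HES1 and -0.0840 to 0.042 for MLLT1.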
